A study of Mus musculus with 4 samples.

Results

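The iron and heme handling genes are 9 genes chosen by name, from the 25655 genes measured in 4 RNA-Seq libraries of cardiac neutrophils. They are *Tfrc* and *Slc11a1* (iron uptake), *Fth1* and *Ftl1* (iron storage), *Slc40a1* (iron export), *Hmox1*, *Blvra* and *Blvrb* (heme breakdown) and *Ireb2* (a regulator of iron genes). Levels are in TPM, a share of each library's transcripts corrected for gene length, and all 9 were among the 6523 genes with a mean over 10 TPM across the 4 libraries. The lowest member value was that of *Tfrc* in WT SiglecF lo neutrophils, 6.24 TPM, and *Tfrc* passed this limit through its level in the SiglecF hi libraries.

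Neutrophils (CD45.2+CD11b+Ly6G+) were sorted from WT and *Cd300a-/-* hearts 3 days after myocardial ischemia and reperfusion (MI/R), to compare a SiglecF hi and a SiglecF lo subset of each genotype. The labels call these subsets SiglecF+ and SiglecF-. All mice were male and 8 to 12 weeks old, and their left anterior descending artery was ligated for 60 min before reperfusion. The methods list C57BL/6J mice, and *Cd300a-/-* mice on the C57BL/6 background, which lack this inhibitory receptor of myeloid cells without restriction to neutrophils. Each of the 4 groups was 1 library made from the pooled cells of 8 hearts, so that no difference has a replicate check and single mice cannot be separated. Library depth, as the total count over all genes, was 9631901 for WT SiglecF lo, 10988619 for *Cd300a-/-* SiglecF lo, 19278243 for WT SiglecF hi and 17632989 for *Cd300a-/-* SiglecF hi neutrophils, and values below follow this order.

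Cells take up transferrin-bound iron through the transferrin receptor, keep iron in ferritin shells of heavy and light chains, and release it through ferroportin. Heme from engulfed red cells and dying tissue is opened by heme oxygenase to biliverdin, iron and carbon monoxide, and biliverdin reductases turn biliverdin into bilirubin. Iron regulatory proteins bind hairpins in the mRNAs of ferritin, ferroportin and the transferrin receptor when iron is scarce, which blocks translation of ferritin and ferroportin and stabilises the receptor mRNA, so that ferritin mRNA and protein need not move together.

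The targeted gene, *Cd300a*, was at 127 and 1.06 TPM in the WT and *Cd300a-/-* SiglecF lo libraries and at 162.9 and 0.74 TPM in the SiglecF hi libraries. *Siglecf* was at 11.3, 15.3, 354 and 405 TPM, high in both SiglecF hi libraries. *Ly6g*, a neutrophil marker used for the sort, was at 330, 889, 11.1 and 41.9 TPM and thus low in both SiglecF hi libraries. The summed level of 9 neutrophil markers, led by *S100a9* and with none at 0, was 155327, 204872, 27840 and 32915 TPM. Of this sum, *S100a8* and *S100a9* made up 88.9%, 84.4%, 86.5% and 84.5%. The other 7 markers summed to 17185, 32048, 3751 and 5111 TPM, above the 12 macrophage markers given below in the SiglecF lo libraries (2830 and 2788 TPM) and under them in the SiglecF hi libraries (7213 and 6546 TPM). Of these 7, *Retnlg* alone was at 12110, 24002, 590 and 1360 TPM. By the threshold given below, 6 of the 9 were lower in SiglecF hi neutrophils of WT (7.47% of all genes) and 8 in *Cd300a-/-* (7.97%). With the centring also given below, all 9 were lower in each genotype (20.9% and 23.6%).

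Each difference is a log2((TPM + 1) ratio), a scale on which weakly expressed genes change less than in TPM, and a gene was counted as higher or lower past 0.5. The brackets hold 95% counting intervals from the counts of both libraries. They cover counting error only, not differences between mice or preparations. Copies of a molecule made by PCR were not told apart by identifiers, so the intervals can be too narrow. The median ratio of the 6523 genes was -0.02 between genotypes (*Cd300a-/-* against WT) for SiglecF lo and 0.04 for SiglecF hi neutrophils. It was 0.53 for SiglecF hi against SiglecF lo neutrophils in WT and 0.61 in *Cd300a-/-*. Ratios between subsets are therefore given with the centred ratio, from which this median was subtracted, or as the centred ratio alone. The 4 comparisons share libraries, since each library enters 2 of them.

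Ferritin and heme oxygenase transcripts stood at the top of the group in every library. In TPM, the order was *Ftl1* and *Fth1*, then *Hmox1*, *Slc11a1*, *Slc40a1*, *Blvrb* and *Blvra*, with *Ireb2* and *Tfrc* lowest. *Fth1* was above *Ftl1* only in *Cd300a-/-* SiglecF lo neutrophils, and *Tfrc* was below *Ireb2* in the SiglecF lo libraries and above it in the SiglecF hi libraries. Neighbours in this order differed by more than counting error except in 2 cases. The TPM ratio of *Ireb2* to *Tfrc* was 1.06 (0.92 to 1.23) in *Cd300a-/-* SiglecF lo neutrophils, and that of *Slc40a1* to *Blvrb* was 1.06 (0.980 to 1.14) in *Cd300a-/-* SiglecF hi neutrophils.

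**Figure D1:**
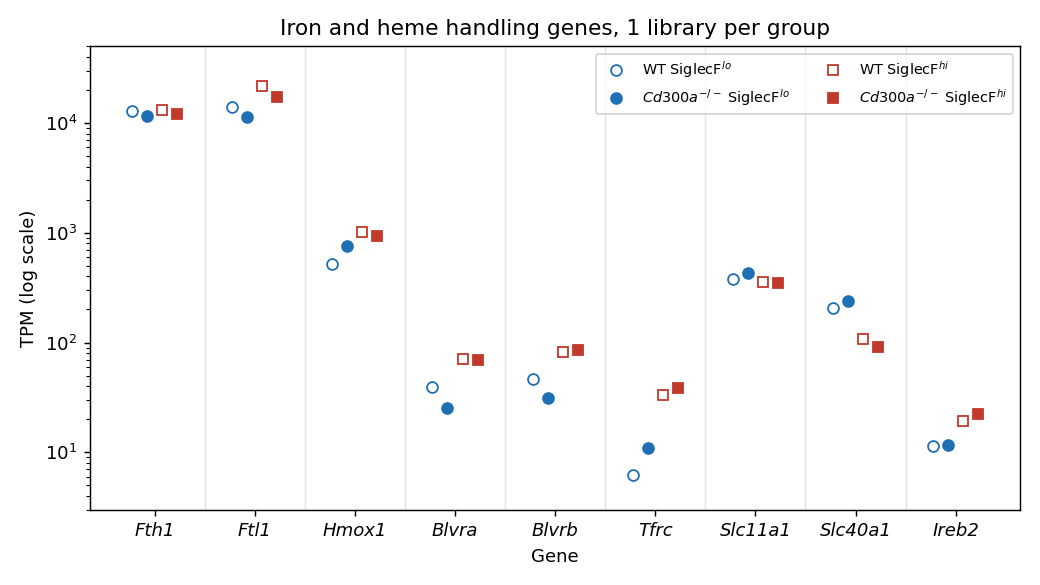
Levels of the 9 iron and heme handling genes in TPM (log axis) in each of the 4 libraries, with circles for SiglecF lo and squares for SiglecF hi neutrophils, open for WT and filled for *Cd300a-/-*; each point is 1 library and no error is drawn. *Tfrc* runs from 6.24 to 38.4 TPM with both squares above both circles, while *Slc40a1* runs from 239 down to 91.2 TPM with both squares below both circles.

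The iron uptake genes are *Tfrc*, the transferrin receptor, and *Slc11a1*, a metal transporter of the phagosome membrane of macrophages and neutrophils. *Tfrc* (ENSMUSG00000022797, chr16:32427738-32451612) had 170 and 329 counts (6.24 and 10.9 TPM) in the WT and *Cd300a-/-* libraries of SiglecF lo and 1556 and 1600 counts (33.4 and 38.4 TPM) in those of SiglecF hi neutrophils. It was high in both SiglecF hi libraries and lowest in WT SiglecF lo neutrophils. Gene positions here and below are those of the files, on the build GRCm39 named in the submitters' processing notes. The ratio of SiglecF hi to SiglecF lo neutrophils was 2.25 (2.05 to 2.45; centred 1.72) in WT, a larger ratio than that of 99.2% of the genes tested, and 1.72 (1.56 to 1.88; centred 1.11) in *Cd300a-/-*, larger than that of 94.7%. Between genotypes, *Tfrc* was higher in *Cd300a-/-* SiglecF lo neutrophils by a ratio of 0.72 (0.49 to 0.96), the highest of the 9 members, while the ratio in SiglecF hi neutrophils was 0.19 (0.10 to 0.29). *Slc11a1* (ENSMUSG00000026177, chr1:74414354-74425221) was at 383, 429, 353 and 350 TPM, a narrow range with the SiglecF lo libraries slightly above the others. Its ratio between subsets was -0.12 (centred -0.64) in WT and -0.29 (centred -0.91) in *Cd300a-/-*, within 0.5 in TPM and past it with centred, TMM and DESeq2 values in both genotypes. Its ratio between genotypes was 0.16 in the SiglecF lo and -0.01 (-0.06 to 0.04) in the SiglecF hi subset, where no difference was detectable at this depth.

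Iron storage genes were among the most abundant of all transcripts. *Fth1* (ENSMUSG00000024661, chr19:9957962-9962462), the ferritin heavy chain with ferroxidase activity, was at 12815, 11582, 13068 and 12151 TPM and ranked 5, 4, 4 and 4 of all genes. *Ftl1* (ENSMUSG00000050708, chr7:45107368-45109308, minus strand), the light chain that helps iron to form a core inside the shell, was at 13935, 11460, 21556 and 17118 TPM and ranked 3, 5, 1 and 1. Heavy chain levels were alike in the 4 libraries, whereas the light chain was high in SiglecF hi neutrophils, highest in WT. Together the chains made up 2.67%, 2.30%, 3.46% and 2.93% of all TPM. The TPM ratio of *Ftl1* to *Fth1* was 1.09 and 0.989 in the SiglecF lo libraries and 1.65 and 1.41 in the SiglecF hi libraries. This ratio compares genes within a library and does not depend on the scaling between libraries.

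Between subsets, *Ftl1* had a ratio of 0.63 (0.62 to 0.64; centred 0.10) in WT and 0.58 (0.57 to 0.59) in *Cd300a-/-*, where its direction flipped to -0.03 after centring and was also below 0 with TMM and DESeq2 scaling. *Fth1* had ratios of 0.03 and 0.07, which flipped to -0.50 and -0.54 after centring and were also below 0 with TMM and DESeq2 scaling. Relative to other genes, then, *Ftl1* stood near the median and *Fth1* below it in SiglecF hi neutrophils. Between genotypes, both chains were slightly lower in *Cd300a-/-* neutrophils of both subsets, within 0.5. The ratio of *Ftl1* was -0.28 (-0.30 to -0.27) in the SiglecF lo and -0.33 (-0.34 to -0.32) in the SiglecF hi subset, and that of *Fth1* was -0.15 and -0.10. All these ratios kept their sign with TMM, DESeq2 and centred values. Ferritin genes have near-identical copies whose reads can be misassigned, so their values are uncertain to that extent. The pseudogene *Ftl1-ps1* had 326, 277, 964 and 592 counts, between 0.431% and 0.515% of the *Ftl1* count, and the 6 *Fthl17* genes were at 0 counts in all 4 libraries.

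*Slc40a1* (ENSMUSG00000025993, chr1:45947228-45965683, minus strand) encodes ferroportin, the iron exporter of the plasma membrane. It had 3687 counts (207 TPM), 4703 counts (239 TPM), 3279 counts (108 TPM) and 2482 counts (91.2 TPM). Both SiglecF hi libraries were low, the reverse of *Tfrc*. The ratio of SiglecF hi to SiglecF lo neutrophils was -0.94 (-1.002 to -0.87; centred -1.46) in WT and -1.38 (-1.45 to -1.31; centred -1.996) in *Cd300a-/-*, and 3.30% and 2.38% of the genes tested had a lower ratio. It was past 0.5 with every scaling used, in both genotypes. Accordingly the TPM ratio of the exporter to the receptor, *Slc40a1* to *Tfrc*, was 33.2 (28.5 to 38.7) and 21.9 (19.6 to 24.5) in the SiglecF lo libraries and 3.22 (3.04 to 3.42) and 2.37 (2.23 to 2.53) in the SiglecF hi libraries. The ratio of *Cd300a-/-* to WT was 0.21 (0.15 to 0.27) in the SiglecF lo and -0.24 (-0.31 to -0.17) in the SiglecF hi subset, both within 0.5.

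Heme breakdown genes had different patterns. *Hmox1* (ENSMUSG00000005413, chr8:75820249-75827217), the inducible heme oxygenase, had 4200 counts (521 TPM), 6776 counts (762 TPM), 14009 counts (1017 TPM) and 11480 counts (931 TPM). WT SiglecF lo neutrophils were lowest and WT SiglecF hi neutrophils highest. Among SiglecF lo neutrophils *Hmox1* was higher in the knockout, by a ratio of 0.55 (0.49 to 0.60), and the ratio was -0.13 (-0.16 to -0.09) in SiglecF hi neutrophils. Between subsets it was 0.96 (0.91 to 1.01; centred 0.44) in WT and 0.29 (0.25 to 0.33) in *Cd300a-/-*, where the direction flipped to -0.32 after centring and was also below 0 with TMM and DESeq2 scaling. The constitutive heme oxygenase, *Hmox2*, was at 96.5, 62.7, 92.0 and 89.0 TPM. It was lowest in *Cd300a-/-* SiglecF lo neutrophils, and the TPM ratio of *Hmox1* to *Hmox2* was 5.40 in WT SiglecF lo neutrophils, where *Hmox1* was lowest, and 12.2, 11.1 and 10.5 in the other libraries.

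Both biliverdin reductases were lowest in *Cd300a-/-* SiglecF lo neutrophils. *Blvra* (ENSMUSG00000001999, chr2:126912585-126939004), which makes bilirubin, had 336 counts (39.2 TPM), 240 counts (25.4 TPM), 1035 counts (70.7 TPM) and 901 counts (68.7 TPM). *Blvrb* (ENSMUSG00000040466, chr7:27147403-27165569), which also acts as a flavin reductase, had 341 counts (46.9 TPM), 250 counts (31.2 TPM), 1013 counts (81.6 TPM) and 959 counts (86.3 TPM). Their levels moved side by side, low in the SiglecF lo and high in the SiglecF hi libraries. Against WT, the *Cd300a-/-* SiglecF lo library had ratios of -0.61 (-0.84 to -0.38) for *Blvra* and -0.57 (-0.80 to -0.35) for *Blvrb*, in the direction opposite to *Hmox1*. In SiglecF hi neutrophils the same ratios were -0.04 (-0.17 to 0.09) and 0.08 (-0.05 to 0.21), and a difference was not detectable at this depth. The subset ratio of *Blvra* was 0.83 (0.66 to 1.01; centred 0.31) in WT and 1.40 (1.20 to 1.60; centred 0.79) in *Cd300a-/-*. That of *Blvrb* was 0.79 (0.61 to 0.96; centred 0.26) in WT and 1.44 (1.24 to 1.64; centred 0.83) in *Cd300a-/-*. After centring, both were past 0.5 in *Cd300a-/-* and within it in WT neutrophils.

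*Ireb2* (ENSMUSG00000032293, chr9:54771073-54819814), which encodes iron regulatory protein 2, was at 11.5, 11.6, 19.1 and 22.2 TPM from 346, 385, 978 and 1020 counts. The SiglecF hi libraries were higher, with a ratio of 0.68 (0.52 to 0.84; centred 0.15) in WT and 0.88 (0.72 to 1.04; centred 0.27) in *Cd300a-/-*. Between genotypes the ratio was 0.01 (-0.18 to 0.20) in the SiglecF lo and 0.21 (0.09 to 0.33) in the SiglecF hi subset. Its protein is controlled by degradation, which mRNA levels do not show.

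Counted over the group, *Cd300a-/-* SiglecF lo neutrophils had 4 of 9 members past 0.5 against WT, where 36.3% of the 6523 genes were past it. These were *Tfrc* and *Hmox1*, higher (16.4% of all genes), and *Blvra* and *Blvrb*, lower (19.9%), and all 4 stayed past 0.5 with TMM (37.1% of all genes), DESeq2 (36.7%) and centred values (36.3%). The counting intervals of all 4 reach inside 0.5, so that counting error alone leaves each call open. In SiglecF hi neutrophils 0 of 9 members were past 0.5, where 6.78% of all genes were (3.31% higher and 3.46% lower), and their ratios ran from -0.33 (*Ftl1*) to 0.21 (*Ireb2*). The median of the members was 0.01 in the SiglecF lo and -0.04 in the SiglecF hi subset, beside -0.02 and 0.04 for all genes. The genotype ratio of SiglecF hi minus that of SiglecF lo neutrophils was -0.53 (-0.78 to -0.27) for *Tfrc*, 0.57 (0.30 to 0.83) for *Blvra* and 0.65 (0.39 to 0.92) for *Blvrb*, with counting error only, and whether the genotype ratios differed between subsets was not tested.

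Between subsets, 7 of 9 members were past 0.5 in WT (59.4% of all genes), 6 of them higher (51.9%) and 1 lower (7.47%) in SiglecF hi neutrophils. In *Cd300a-/-* neutrophils 6 of 9 members were past 0.5 (64.6%), 5 higher (56.6%) and 1 lower (7.97%). The member medians, 0.68 and 0.58, lay near those of all genes, 0.53 and 0.61. Centring changed the split of all genes from 3386 higher and 487 lower to 1259 and 1363 in WT, and from 3692 and 520 to 1382 and 1540 in *Cd300a-/-* neutrophils. TMM scaling gave 1309 higher and 1371 lower in WT and 1580 and 1427 in *Cd300a-/-*, and DESeq2 scaling 1105 and 1583 in WT and 1332 and 1617 in *Cd300a-/-*. With centring, 3 of 9 members were past 0.5 in WT (40.2% of all genes), 1 higher (19.3%) and 2 lower (20.9%), and 6 of 9 in *Cd300a-/-* neutrophils (44.8%), 3 higher (21.2%) and 3 lower (23.6%). In WT, 4 of 9 were past 0.5 with TMM (41.1%) and 4 of 9 with DESeq2 scaling (41.2%). In *Cd300a-/-* neutrophils these counts were 6 of 9 (46.1%) and 6 of 9 (45.2%), each with 3 higher and 3 lower. *Tfrc* and *Slc40a1* were past 0.5 with all 4 scalings in both genotypes, and *Blvra* and *Blvrb* in *Cd300a-/-* neutrophils.

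**Figure D2:**
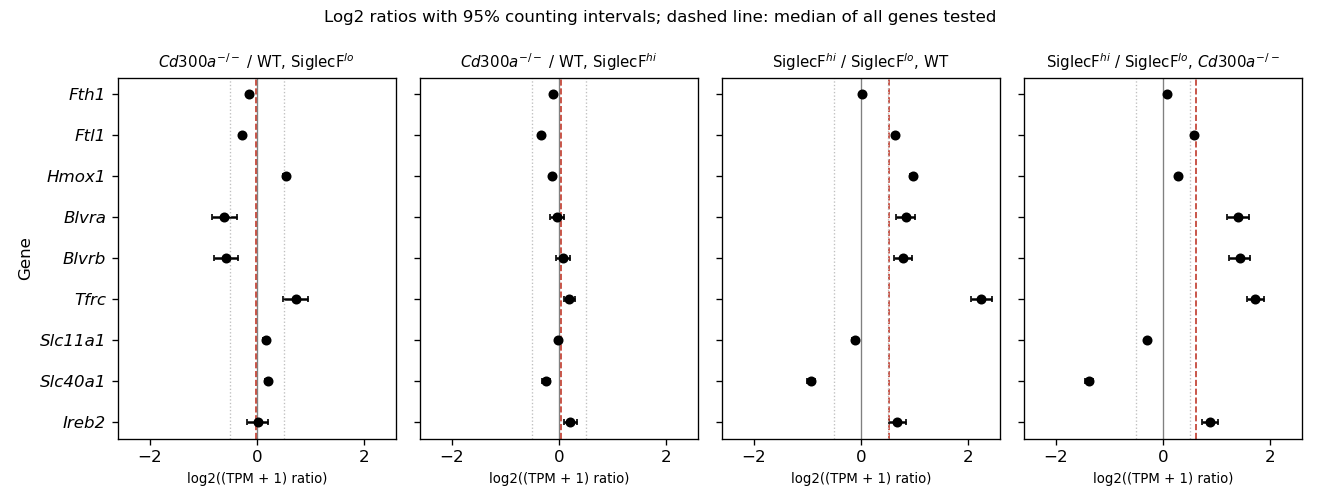
Log2((TPM + 1) ratio) of the 9 genes in the 4 comparisons, with bars for 95% counting intervals from 1 library per group, dotted lines at 0.5 in both directions and a dashed line at the median of the 6523 genes. *Tfrc* (2.25 and 1.72) lies right of the dashed line and *Slc40a1* (-0.94 and -1.38) left of it in the subset comparisons, while *Fth1*, *Ftl1* and *Hmox1* lie between 0 and the dashed line in the *Cd300a-/-* panel, and *Fth1* also in the WT panel, so that their sign flips when centred.

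Tissue macrophages and erythroid cells also express genes of this group, so the markers of both are given here, and their part in the results was not tested. The 12 macrophage markers summed to 2830, 2788, 7213 and 6546 TPM, with none at 0 in any library. *C1qb* was the most abundant in 3 libraries, at 839, 2257 and 2036 TPM, and *C1qa*, at 755 TPM, in *Cd300a-/-* SiglecF lo neutrophils. In WT SiglecF hi neutrophils *C1qb*, *C1qa* (1908 TPM) and *C1qc* (1684 TPM) were above every neutrophil marker but *S100a8* and *S100a9*, the next being *Mmp9* (1297 TPM). Of the 11 that passed the limit on mean TPM, 9 were higher in SiglecF hi neutrophils of each genotype (51.9% of all genes in WT and 56.6% in *Cd300a-/-*), and 8 in WT (19.3%) and 5 in *Cd300a-/-* (21.2%) after centring. *Lyve1* was lower in WT (-0.53; centred -1.05) and, after centring only, in *Cd300a-/-* (-0.57). The sum was thus higher in SiglecF hi neutrophils, where *Tfrc* was also higher and *Slc40a1* lower with every scaling. In SiglecF lo neutrophils the sum, most of it from *C1qa*, *C1qb* and *C1qc*, was close between the genotypes, while *Mrc1* (0.66) and *Cd163* (1.28) were higher in *Cd300a-/-*. In these pooled sorts, fewer cells of a type and less RNA per cell cannot be told apart. The 8 erythroid markers analysed summed to 1417, 780, 893 and 999.7 TPM, highest in WT SiglecF lo neutrophils, where *Tfrc* was lowest. *Hbb-bt* was instead lowest there, at 27.1, 47.2, 46.5 and 81.1 TPM. *Hba-a1* (129, 120, 154 and 120 TPM) and *Alas2* (1.43, 1.30, 3.58 and 2.50 TPM) were highest in WT SiglecF hi neutrophils. Between genotypes in SiglecF lo neutrophils, 1 of the 4 tested was higher and 2 were lower in *Cd300a-/-* (16.4% and 19.9% of all genes). *Hba-a2* was the most abundant, at 799, 408, 412 and 450.4 TPM, and *Epb42* and *Slc4a1*, which encode proteins of the red cell membrane, were at 0 in all 4 libraries.

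Other genes of iron and heme metabolism came from 8 lists, of which 51 genes were analysed and 30 passed the limit on mean TPM. Against WT, the *Cd300a-/-* SiglecF lo library had 10 of the 30 higher and 3 lower (16.4% and 19.9% of all genes), and the SiglecF hi library had 4 higher and 1 lower (3.31% and 3.46%). Between subsets, 14 were higher and 6 lower in SiglecF hi neutrophils of WT (51.9% and 7.47% of all genes), and 15 and 6 in *Cd300a-/-* (56.6% and 7.97%). After centring these became 5 and 8 in WT (19.3% and 20.9%) and 4 and 10 in *Cd300a-/-* (21.2% and 23.6%). The list median was 0.12 in the SiglecF lo and 0.12 in the SiglecF hi subset for the genotypes (-0.02 and 0.04 for all genes), and 0.45 in WT and 0.55 in *Cd300a-/-* for the subsets (0.53 and 0.61).

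Scavenging of hemoglobin and heme involves the receptors *Cd163* and *Lrp1* and the hemoglobin-binding protein haptoglobin (*Hp*). *Cd163*, also 1 of the macrophage markers, was at 13.8, 34.8, 20.5 and 38.2 TPM, higher in *Cd300a-/-* than in WT neutrophils of both subsets (ratios 1.28 in SiglecF lo and 0.86 in SiglecF hi). *Lrp1*, the receptor for heme bound to hemopexin, was at 40.5, 60.9, 143 and 118 TPM, and *Slc48a1*, which moves heme out of phagolysosomes, at 30.8, 27.9, 113 and 82.9 TPM. Both were high in SiglecF hi neutrophils, with centred ratios of 1.27 and 1.31 in WT and 0.32 and 0.92 in *Cd300a-/-*. *Hp* was instead low there, at 2028, 2837, 586 and 674 TPM (subset ratios -1.79 and -2.07; centred -2.32 and -2.69).

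Among regulators and handlers of cytosolic iron, *Fbxl5*, which targets iron regulatory proteins for degradation, was at 100.1, 185, 67.4 and 76.9 TPM and highest in *Cd300a-/-* SiglecF lo neutrophils (ratio to WT 0.88). *Bach1*, a heme-binding repressor of *Hmox1*, was at 62.6, 98.5, 75.3 and 81.6 TPM and was also highest there (0.65), in the same library comparison in which *Hmox1* was higher. *Aco1*, which encodes iron regulatory protein 1, was at 6.15, 7.60, 23.5 and 12.4 TPM, high in WT SiglecF hi neutrophils and lower in *Cd300a-/-* SiglecF hi neutrophils (-0.87). *Ncoa4*, the receptor that delivers ferritin to lysosomes, was at 45.6, 51.3, 115 and 95.6 TPM, with centred subset ratios of 0.79 in WT and 0.27 in *Cd300a-/-*. The iron channel of lysosomes, *Mcoln1*, was likewise high in SiglecF hi neutrophils (centred 0.67 and 0.87), and the metalloreductase *Steap4* and the myeloid transcription factor *Spi1* were low (centred -1.80 and -1.86, and -1.16 and -1.30). Past 0.5 between subsets in at least 1 genotype, but within it in both after centring, were, with others, *Slc39a14*, *Pcbp1*, *Pcbp2*, *Hfe*, *Nfe2l2*, *Urod*, *Nfs1* and *Isca1*.

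Of 7 mitochondrial iron and iron-sulfur genes tested, 2 were higher and 2 lower in *Cd300a-/-* SiglecF lo neutrophils (16.4% and 19.9% of all genes). Against WT, the other 3 were within 0.5. The mitochondrial iron importers *Slc25a37* (14.3 and 26.4 TPM in WT and *Cd300a-/-*; ratio 0.84) and *Slc25a28* (19.6 and 37.7 TPM; 0.91) were higher in *Cd300a-/-*. *Glrx5* (12.6 and 4.74 TPM; -1.25) and *Isca2* (39.5 and 17.6 TPM; -1.12), which serve iron-sulfur cluster assembly, were lower. Of the 3 heme synthesis genes tested, *Alas1*, the rate-limiting enzyme outside the erythroid lineage (0.64), and *Ppox* (0.94) were higher in *Cd300a-/-*. The lower values rested on few counts, with 88 for *Isca2* and 92 for *Glrx5* in the *Cd300a-/-* library.

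The secreted iron-binding granule protein lactoferrin (*Ltf*) and the siderophore-binding lipocalin 2 (*Lcn2*) are granule genes as well. *Ltf* was at 279, 580, 41.2 and 136 TPM and *Lcn2* at 2385, 6124, 242 and 568 TPM, high in SiglecF lo neutrophils and, within each subset, higher in *Cd300a-/-* (*Ltf* 1.05 and 1.70, *Lcn2* 1.36 and 1.23 in SiglecF lo and SiglecF hi).

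Several members carry iron-responsive hairpins, and these are shown because they are what iron regulatory proteins bind. GENCODE M21 transcripts (GRCm38, another build than that of the gene positions above) were searched on the sense strand for a bulged C, then 5 bases of a stem, the 6-base loop CAGTGN and 5 bases that pair with the stem, G–T pairs included. It was found in 4 of the 9 members (44.4%), in 1 of the 50 other iron and heme genes with a protein-coding transcript there (*Bola3*, 2.00%) and in 294 of 21877 protein-coding genes (1.34%). These counts take matches in any part of a transcript, coding sequence included. Members were chosen by name and include genes known to carry such hairpins, so their share is no test of enrichment. Capitals mark the bulged C and the 6-base loop.
Fth1 5′ UTR: ttcctgCttcaaCAGTGCttgaacggaacc
Ftl1 5′ UTR: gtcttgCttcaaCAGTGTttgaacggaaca
Slc40a1 5′ UTR: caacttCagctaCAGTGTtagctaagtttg
Tfrc 3′ UTR hairpin 1: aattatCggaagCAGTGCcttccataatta
Tfrc 3′ UTR hairpin 2: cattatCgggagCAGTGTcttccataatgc
Tfrc 3′ UTR hairpin 3: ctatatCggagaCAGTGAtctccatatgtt
Tfrc 3′ UTR hairpin 4: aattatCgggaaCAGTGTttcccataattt

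All these hairpins lie in exons, outside the coding sequence. That of *Fth1* is at chr19:9982732-9982761 (plus strand), that of *Ftl1* at chr7:45459778-45459807 (minus strand) and that of *Slc40a1* at chr1:45925464-45925493 (minus strand). The 4 of *Tfrc* are at chr16:32631219-32631248, chr16:32631598-32631627, chr16:32631663-32631692 and chr16:32631710-32631739 (plus strand). The genes with the hairpin before the coding sequence, *Fth1*, *Ftl1* and *Slc40a1*, did not share a pattern in mRNA, with subset ratios in WT of 0.03, 0.63 and -0.94 (centred -0.50, 0.10 and -1.46). A match describes the letters of the transcript, and binding was not measured. Hairpins with another loop or with an unpaired base in the stem were not sought, so the hairpins listed and counted can be incomplete.

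Genes with the profile most like that of a member were sought by the Euclidean distance of log2(TPM + 1), centred on the mean of the 4 libraries. For *Slc40a1* the nearest of the 6523 genes were *Sema4a* (0.11), *Selplg* (0.19) and *Sephs2* (0.21), and 8 genes lay within 0.25. Those nearest to *Hmox1* were *S1pr2* (0.045), *Rexo4* (0.047) and *Ankhd1* (0.052), and those nearest to *Fth1* were *Fcer1g* (0.018), *Chmp3* (0.036) and *Timm8b* (0.043). The last 2 profiles were common, with 245 genes within 0.25 of *Hmox1* and 305 of *Fth1*, and all rest on 4 libraries only.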

How the data were processed

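Libraries were made from poly(A) RNA with the NEBNext Ultra II kit and sequenced as paired ends. The authors calculated TPM with CLC Genomics Workbench 20.0, and mapping settings are not given in the sources used here. The count the authors deposited per gene is whole and not normalized, and it is not stated whether it counts reads or pairs or uses strand. The authors also deposited RPKM, TPM and a scaled CPM signal, of which the signal was not used. For the DESeq2 values, the total count and the RPKM sum of each library brought TPM back to the scale of counts. The size factors were then applied.

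From TPM, log2((TPM + 1) ratio) was computed for genes with a mean TPM over 10. Counting intervals (95%) came from the Poisson error of the counts. Alternatives were a pseudocount of 0.1, TMM (edgeR 4.0.16) and DESeq2 1.42.0 scaling of the counts (R 4.3.3), centring on the median, other limits on TPM and a threshold of 1. With 1 library per group no test was made. The text names the members, genes of fixed pathway lists past 0.5, genes of the sort and marker lists of neutrophils, macrophages, erythroid cells, cardiomyocytes, eosinophils, endothelial cells and fibroblasts. It also names the ferritin copies *Ftl1-ps1* and *Fthl17*, *Bola3* for its hairpin, and the genes nearest in profile to a member. Of the fixed lists, 2 genes are not reported here, and list counts and medians leave them out. *Hmox2* was also used as a reference for *Hmox1*. Members and lists were chosen with earlier results of these data known. Hairpins were read from GENCODE M21 transcripts. Calculations were tested on simulated data with Python 3.11.15, numpy 2.4.6, pandas 2.3.3, scipy 1.17.1 and matplotlib 3.10.9.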

Additional observations from a re-analysis of the deposited data

Results flagged for a closer look

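For 2 of 9 members (22.2%) and 5 of 30 other iron and heme genes (16.7%) the ratio of *Cd300a-/-* to WT had opposite signs in the subsets, with counting intervals off 0 in each, as for 1029 of all 6523 genes (15.8%). With 1 library per group, the difference between subsets was not tested for any of them. Among the members, *Hmox1* had a ratio of 0.55 in the SiglecF lo and -0.13 in the SiglecF hi subset, a difference of -0.67. *Slc40a1* had 0.21 and -0.24, a difference of -0.45.

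Among the other iron and heme genes, the ratio of *Lrp1* was 0.58 in the SiglecF lo and -0.28 in the SiglecF hi subset (difference -0.86), and that of *Ncoa4* was 0.17 and -0.27 (difference -0.43). The opposite signs were seen for *Nfe2l2*, a regulator of antioxidant genes, with -0.37 and 0.25 (difference 0.62), for *Hfe*, with -0.41 and 0.19 (difference 0.60), and for the iron chaperone *Pcbp2*, with -0.25 and 0.18 (difference 0.43).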

How the results depend on the processing

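Each group has 1 library, so none was left out. A fit of genotype with subset as a block, which leaves 1 residual degree of freedom, was not run, and no result here comes from a test. With a pseudocount of 0.1, all member ratios stayed within their counting intervals, while with TMM and with DESeq2 scaling 14 of 36 did. With each of these 2, 4 subset ratios changed sign, those of *Fth1* in both genotypes, which ended past 0.5, and those of *Ftl1* and *Hmox1* in *Cd300a-/-*, which did not. The counts below are given for *Cd300a-/-* against WT in SiglecF hi and in SiglecF lo, then for the subsets in WT and in *Cd300a-/-*. The genes past 0.5, 442, 2367, 3873 and 4212 of 6523 (6.78%, 36.3%, 59.4% and 64.6%), became 1716, 5178, 7317 and 7619 of 11472 with a mean TPM over 1 (15%, 45.1%, 63.8% and 66.4%), 2674, 6476, 8813 and 8996 of 25655 without a limit (10.4%, 25.2%, 34.4% and 35.1%), and 46, 611, 1520 and 1975 past a threshold of 1. With TPM over 10 in both libraries, 1516 of 5078 genes (29.9%) passed in SiglecF lo neutrophils between genotypes and 2866 of 5438 (52.7%) between subsets in WT. *Tfrc*, at 6.24 TPM in WT SiglecF lo neutrophils, then dropped out, which left 3 of 8 members in place of 4 of 9 in the first and 6 of 8 in place of 7 of 9 in the second.

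Of the members, 0 of 9 passed a threshold of 1 between genotypes in SiglecF lo neutrophils (9.37% of all genes), 1 passed it between subsets in WT (*Tfrc*; 23.3%) and 4 in *Cd300a-/-* (*Tfrc*, *Slc40a1*, *Blvra* and *Blvrb*; 30.3%). In WT, 4 members passed 0.5 between subsets with TMM, 4 with DESeq2 and 3 with centred values, in place of 7. The *Cd300a-/-* count was 6 with each of these, as with TPM. In *Cd300a-/-* neutrophils the subset ratio of *Ftl1*, 0.58, turned to -0.0030 with TMM, -0.083 with DESeq2 and -0.034 with centring. The difference between subsets of the genotype ratio became -0.013 for *Fth1* (from 0.041) and -0.10 for *Ftl1* (from -0.05) with centring. Centring subtracts the median of all genes in a comparison, and TMM and DESeq2 scaling apply a factor to each library. These steps shift the ratios of a comparison together, which gives the changes above. Why the medians differ between subsets was not tested. *Tfrc* in WT SiglecF lo neutrophils, with 170 counts (145 to 198), was the member value most limited by depth.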

Other observations

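Markers of further cell types had lower sums than those of neutrophils, whose sum is mostly *S100a8* and *S100a9*. Single markers overlapped, and in WT SiglecF hi neutrophils the fibroblast genes *Dcn* (586 TPM) and *Col3a1* (572 TPM) were above *Cxcr2* (376 TPM) and *Itgam* (337 TPM). The 6 fibroblast markers, led by *Dcn*, summed to 869, 812, 1854 and 1299.8 TPM in WT SiglecF lo, *Cd300a-/-* SiglecF lo, WT SiglecF hi and *Cd300a-/-* SiglecF hi neutrophils, with none at 0. The 6 endothelial markers, led by *Pecam1*, summed to 147, 52.0, 80.5 and 103 TPM, lowest in *Cd300a-/-* SiglecF lo neutrophils. The 8 cardiomyocyte markers summed to 62.7, 33.1, 60.2 and 106 TPM, led by *Pln*, *Myl2*, *Tnnt2* and *Mb* in turn, with *Ryr2* at 0 in both *Cd300a-/-* libraries. Of the 7 markers of eosinophils, which also carry SiglecF, *Ear2* held most of the sum of 173, 87.9, 117 and 119 TPM, *Epx* was at 0 in all 4 libraries, and *Prg2*, *Ear1* and *Ear6* were at 0 in all but WT SiglecF hi neutrophils. *Ccr3* was higher in both SiglecF hi libraries, at 1.49, 1.78, 4.91 and 5.49 TPM. *Il5ra* was highest in WT SiglecF lo neutrophils, at 0.65, 0.20, 0.35 and 0.32 TPM. The part of these cell types in the iron and heme results was not tested.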
